A study of Rattus norvegicus with 4 samples.

Results

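Chief cells fill the base of the oxyntic glands, the acid-secreting glands of the gastric corpus, and release digestive zymogens, which are inactive enzyme precursors. Chymosin (Cym) is the milk-clotting aspartic protease best known from suckling mammals. Pepsinogen C (Pgc) is the precursor of the protease gastricsin, which acid activates in the lumen. Intrinsic factor (Cblif, formerly Gif) is not an enzyme: it binds cobalamin and carries it to the ileum, and in the rat chief cells secrete it. Release is known to be driven by acetylcholine, gastrin and cholecystokinin, and somatostatin restrains it.

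The 3 genes were taken by their symbols in the platform annotation, and each was read by 1 probe set, so 3 probe sets of 15866 on the chip were followed. They were chosen by their signals on the treated chips relative to the vehicle chip, in particular because chymosin parted from the others. Their differences between the groups are therefore given as a description with no test. The series named 12783 probe sets by a single gene.

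Octreotide LAR is the slow-release depot of octreotide, a long-lived analogue of somatostatin. In the treated group, 6 female Sprague-Dawley rats of 8 weeks received 5 mg of octreotide LAR per animal. Scraped oxyntic mucosa was taken at 21 days, and RNA was pooled by 2 animals onto 3 Affymetrix RAE230A chips, called pools 1, 2 and 3. In the vehicle group, 8 rats of the same strain, sex and age received the LAR vehicle in matching volume, and their RNA was pooled onto 1 chip. All animals were fasted overnight before anaesthesia. The labels word the vehicle tissue as corpus mucosa, and its source name reads octreotide LAR, so the vehicle group was taken from the title alone. The single vehicle chip has no measured spread, so a peculiarity of that pool and an effect of treatment cannot be told apart.

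Median signals lay between 223.7 and 233.4 on the treated chips, against 225.8 on the vehicle chip. Over the 9520 probe sets bright enough to test, pairwise correlations of the 4 chips ran from r = 0.9588 to 0.9661. No pair of chips shared more than 4 identical values. The marker genes of the chief cell were checked on the array. Apart from the 3 genes themselves, pepsinogen A (Pga5), the acid chitinase Chia and the chief cell transcription factor Bhlha15 passed the level for testing. Gastric lipase (Lipf), which the rat is known to make in the tongue, did not: it had signals of 79.8, 112.7 and 87.8 on the treated chips and 22.1 on the vehicle chip. In scraped tissue, fewer chief cells and less RNA per chief cell cannot be told apart.

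The bases upstream of each gene are shown because the 3 genes, all of 1 cell type, parted between the treated chips and the vehicle chip. They are RefSeq sequences of build GRCr8, 250 bases each, 5′ to 3′ on the strand of the gene and ending at the base before the annotated start. Cym lies at chr2:197527308-197527557 on the minus strand, Pgc at chr9:20763221-20763470 on the minus strand and Cblif at chr1:218030506-218030755 on the plus strand. Capitals mark TATAAA, the core of a TATA box:
Cym: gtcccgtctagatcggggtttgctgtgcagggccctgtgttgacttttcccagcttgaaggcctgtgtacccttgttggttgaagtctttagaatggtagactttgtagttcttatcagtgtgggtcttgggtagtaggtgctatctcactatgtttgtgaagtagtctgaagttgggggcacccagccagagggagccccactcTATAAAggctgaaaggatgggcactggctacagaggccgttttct
Pgc: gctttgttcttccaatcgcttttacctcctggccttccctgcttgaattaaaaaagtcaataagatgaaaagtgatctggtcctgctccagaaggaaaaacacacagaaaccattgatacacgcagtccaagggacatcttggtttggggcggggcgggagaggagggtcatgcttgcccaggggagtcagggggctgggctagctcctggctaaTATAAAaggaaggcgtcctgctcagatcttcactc
Cblif: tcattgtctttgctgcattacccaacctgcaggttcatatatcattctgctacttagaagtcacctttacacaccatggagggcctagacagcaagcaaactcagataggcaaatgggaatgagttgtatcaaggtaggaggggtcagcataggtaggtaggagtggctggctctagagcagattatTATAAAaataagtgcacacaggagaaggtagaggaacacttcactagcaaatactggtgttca

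All 3 upstream stretches held TATAAA, beginning 45 bases before the start in Cym, 35 in Pgc and 63 in Cblif. On either strand, TATAAA stood in 12.9% of the 33465 annotated stretches of the same length. The E-box CANNTG, the core bound by basic helix-loop-helix factors such as Bhlha15, stood once in Cblif and not in Cym or Pgc, against 65.5% of all stretches. Its special form CATATG, which is contained in CANNTG, stood in none of the 3 and in 3.63% of all. GATAA, the core of GATA factor sites, stood once in Cym and in neither of the others (23.5% of all). Neither AAGGTCA, the half-site of oestrogen-related receptors, nor TGACG, the half-site of CREB, stood in any of the 3, against 3.99% and 18.2% of all. TGACG is contained in the full CREB site TGACGTCA, which was likewise in none of the 3 and in 1.59% of all. These are matches of letters in the window only.

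Chymosin was lower on every treated chip, while pepsinogen C and intrinsic factor lay between 85.6% and 109.9% of their vehicle signals on every treated chip. Cym had signals of 3952.1, 8203.8 and 7560.9 on treated pools 1, 2 and 3, against 19071.1 on the vehicle chip. All treated chips lay below the vehicle chip, and pool 1 was the lowest. The treated signals averaged 6572 ± 2292 (SD, n = 3), or 34.5% of the vehicle signal. They were 20.7%, 43.0% and 39.6% of it on pools 1, 2 and 3.

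Pgc had signals of 61846, 55673 and 48189.4 on treated pools 1, 2 and 3, against 56280.8 on the vehicle chip. The vehicle chip lay inside the treated range, above pools 2 and 3 and below pool 1. The treated mean was 55236 ± 6839 (SD, n = 3), or 98.1% of the vehicle signal. The Pgc probe set had the highest mean signal of all probe sets on the array, so it was read at the upper end of the intensity scale, and the room left there for a higher reading was not tested.

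Cblif had signals of 19286, 19108.9 and 20659.3 on treated pools 1, 2 and 3, against 21272.6 on the vehicle chip. All treated chips lay below the vehicle chip, pool 3 by a small margin. The treated mean was 19685 ± 849 (SD, n = 3), or 92.5% of the vehicle signal. Of the 9520 probe sets tested, 24% had all 3 treated chips below the vehicle chip and 25% had all 3 above it, so a lone vehicle chip is often at one end.

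**Figure D1:**
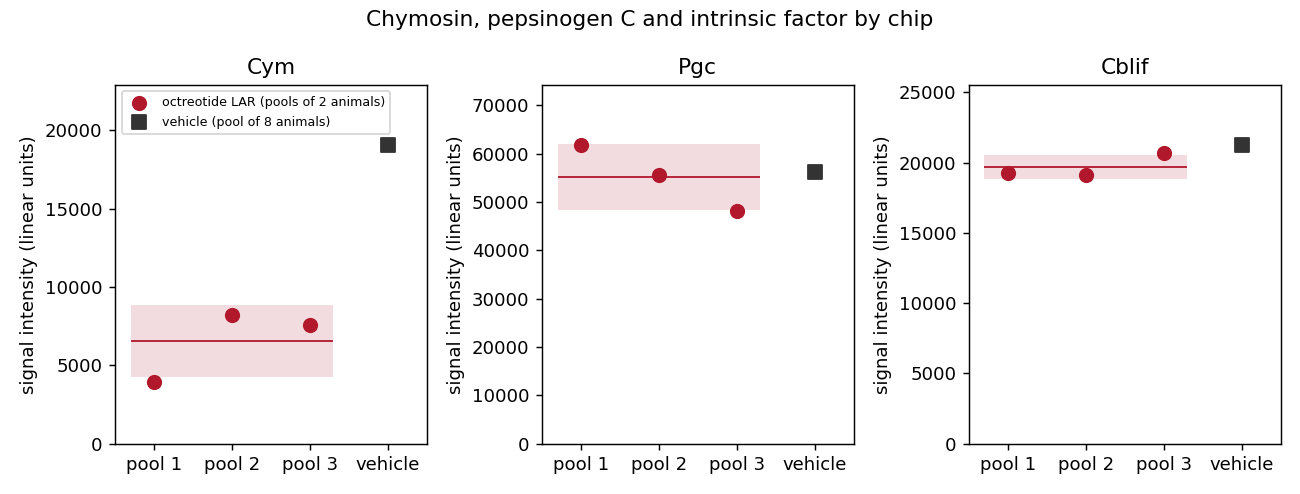
Signal intensity (linear units, axis from 0) of Cym, Pgc and Cblif on the 3 octreotide LAR chips (circles, each a pool of 2 animals) and the vehicle chip (square, a pool of 8 animals). The line and band give the treated mean and SD (n = 3). The Cym circles lie between 3952.1 and 8203.8 with the vehicle square at 19071.1, while the squares of Pgc and Cblif lie near their circles.

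Differences were taken as log2(signal + 16) on a treated chip minus that on the vehicle chip, so that a negative value is lower under octreotide LAR. The log2 difference of Cym was -2.27, -1.22 and -1.33 on pools 1, 2 and 3, with a mean of -1.60 ± 0.58 (SD, n = 3), a 3.04-fold lower level. Among the 9520 probe sets tested it ranked as the 3rd, 37th and 17th lowest difference on these pools, and as the 2nd lowest in the mean. The corresponding differences of Pgc were 0.14, -0.02 and -0.22, with a mean of -0.03 ± 0.18 (SD, n = 3). Those of Cblif were -0.14, -0.15 and -0.04, with a mean of -0.11 ± 0.06 (SD, n = 3).

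The middle 90% of tested probe sets had mean differences from -0.45 to 0.49, with Pgc and Cblif well inside this range and Cym far outside it. The genes were chosen by this contrast, so nothing is read from these places or from the ranks of Cym above. For the 100 brightest probe sets, which include Pgc and Cblif but not Cym, the median difference was 0.15, 0.10 and 0.04 on pools 1, 2 and 3. Both Pgc and Cblif lay below that median on every pool.

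**Figure D2:**
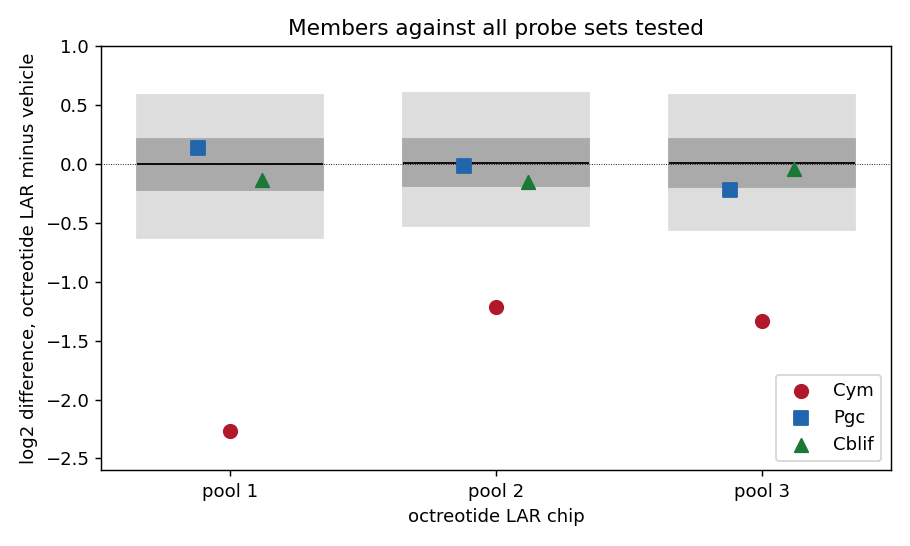
Log2 difference (octreotide LAR minus vehicle) of Cym, Pgc and Cblif on each treated chip, over boxes of all 9520 probe sets tested (light grey 5th to 95th percentile, dark grey 25th to 75th, line the median). Cym lies at -2.27, -1.22 and -1.33, below every light box, and Pgc and Cblif lie inside the dark boxes except Pgc on pool 3 at -0.22.

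A factor common to a whole chip cancels when one gene's difference is subtracted from another's. Cym minus Pgc was -2.40, -1.20 and -1.11 on pools 1, 2 and 3, a mean of -1.57 ± 0.72 (SD, n = 3). Cym minus Cblif was -2.12, -1.06 and -1.29, a mean of -1.49 ± 0.56 (SD, n = 3). Relative to pepsinogen C, chymosin was thus 2.97-fold lower, and relative to intrinsic factor 2.81-fold lower, with the same sign on all treated chips. The genes were chosen for this parting, and all differences share the vehicle chip, so nothing is read from the shared sign. Pgc minus Cblif went both ways, at 0.28, 0.14 and -0.18.

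The vehicle chip stood 2.32-fold above the highest treated Cym signal, and the treated signals themselves spanned 2.07-fold. The gap to the vehicle chip was thus only slightly wider than the span of the treated pools. Pgc spanned 1.28-fold over the treated pools and Cblif 1.08-fold. The SD of the treated log2 values was 0.58 for Cym, at or above that of 97.1% of tested probe sets. It was 0.18 for Pgc, close to the median of 0.18, and 0.06 for Cblif, among the smallest 8.16%.

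The wide spread of chymosin came from pool 1. Cym on pool 1 was 0.99 lower on the log2 scale than the mean of pools 2 and 3, which were 0.12 apart. By that measure 83 of 9520 tested probe sets (0.872%), Cym included, were as low or lower on pool 1. The choice of Cym used its treated signals, so nothing is read from its share on pool 1. Pepsinogen A and the chitinase Chia, both enzymes of the chief cell, were low on the same chip. Pga5, the precursor of pepsin A, had 3397, 6522.4 and 6385.2 on treated pools 1, 2 and 3, against 5753.6 on the vehicle chip. Chia, which degrades chitin in the stomach, had 15960.7, 29279.5 and 27607.8 on those pools, against 31066.5 on the vehicle chip.

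On pool 1, Pga5 was 0.92 and Chia 0.83 below the mean of pools 2 and 3 on the log2 scale, values that 1.14% and 1.75% of tested probe sets reached. Pgc went the other way, 0.26 above the mean of pools 2 and 3, and Cblif was 0.04 below it. These 2 chief cell enzymes were singled out after their values were seen, and no test was made. On pools 2 and 3 the paths parted: Cym was still 1.22 and 1.33 below the vehicle chip, while Pga5 was 0.18 and 0.15 above it and Chia 0.09 and 0.17 below it.

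**Figure D3:**
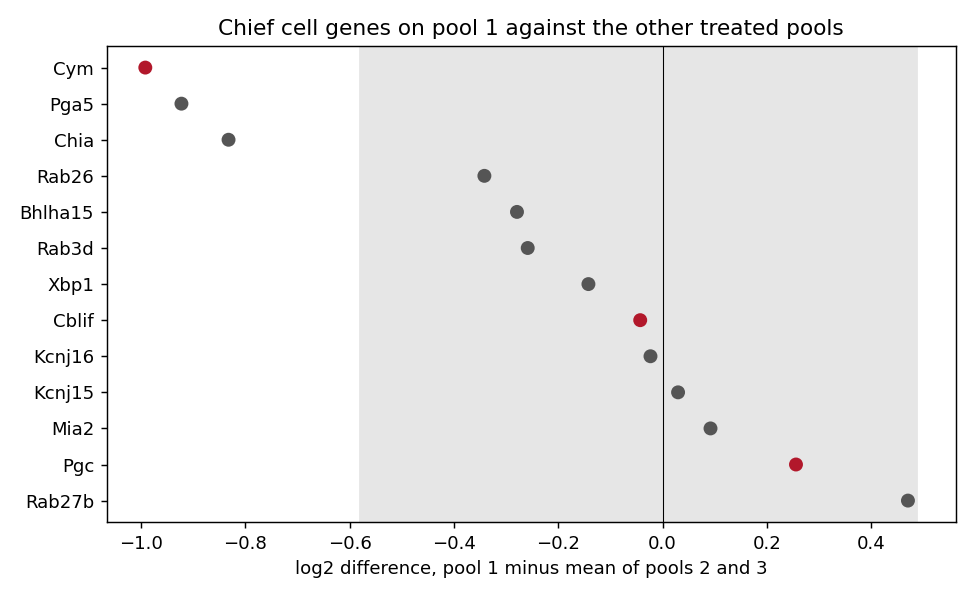
Log2 value on pool 1 minus the mean of pools 2 and 3 for Cym, Pgc and Cblif (red) and the 10 tested genes of the chief cell list (grey), with the 5th to 95th percentile of all tested probe sets shaded. Cym, Pga5 and Chia lie at -0.99, -0.92 and -0.83, left of the shading, while Cblif lies at -0.04 and Pgc at 0.26.

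Pool 1 also had the largest sums of squamous, muscle and parietal marker genes among the treated chips. The summed signal of 13 genes of the squamous forestomach, the keratinised lining next to the oxyntic mucosa, was 10018, 7127 and 6199 on the treated chips in order of pool, against 2039 on the vehicle chip. Smooth muscle genes (8) summed to 81915, 70102 and 64017 on these pools, against 70327 on the vehicle chip. Genes of the acid-secreting parietal cell (10) summed to 102977, 91548 and 87262, against 95932. The sums of squamous genes were thus higher on every treated chip, and those of muscle and parietal genes straddled the vehicle chip.

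The 8 genes of the histamine-storing ECL cell summed to between 7789 and 8059 on the treated chips, against 15590 on the vehicle chip. Surface and pit mucous genes (8) summed to between 171800 and 178100 on the treated chips, against 159407 on the vehicle chip. Those of mucous neck cells, long described as precursors of chief cells, are 2 on the array and summed to between 9586 and 12140 on the treated chips, against 7487, a difference carried by Tff2, since Lyz2 averaged 1015 against 1016. The exocrine pancreas list, with 20 genes on the array, summed to between 91480 and 114000 on the treated chips, against 110884, mostly from Pla2g1b and Clps. Other genes of the list, among them Prss1, Prss2, Amy2a3, Cpb1, Ctrl and Pnlip, lay under the level for testing. The source of the Pla2g1b and Clps signals was not tested. Gene by gene it leaned lower: 9 of its 10 tested genes had a lower treated mean, and 6 had all treated chips below the vehicle chip (24% of all probe sets did). The median difference was -0.27, and limma called none. Cela2a, Cel and Cpa1, 3 genes of the list, had an unadjusted p under 0.05 (440 of 9520 tested probe sets did). Like Cym, these 3 genes lay below vehicle on pools 1, 2 and 3, but their lowest pools differed. Cela2a was lowest on pool 3, Cel on pool 2, and Cpa1 and Cym on pool 1. Other lists were one-sided too. All 11 tested squamous genes were above vehicle on each pool (median difference 1.83), as were all 8 surface and pit mucous genes (0.20). Of 7 tested ECL genes, 5 were below it on each pool (median difference -0.80). Mast cell genes (5) summed to between 425.2 and 637 on the treated chips, against 504.4 on the vehicle chip, and the 1 plasma and B cell gene on the array had 14.7 to 20.9, against 17.7. No listed gene had a signal of 0. The part of any of these cells in the chymosin values was not tested.

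The other genes of the chief cell were read from the fit of all 9520 probe sets with limma (two-sided, Benjamini-Hochberg adjustment). At a threshold of 0.05 on the adjusted p, 8 probe sets were called, 0.084% of those tested: 7 higher (0.0735%) and 1 lower (0.0105%). A further measure, an unadjusted p under 0.05, was met by 440. The count of calls was 45, 52 and 23 without pools 1, 2 and 3, and 0 with no filter on dim probe sets or no trend of the spread, so these shares are a loose background. Of 18 listed chief cell genes, 15 were on the array, 10 passed the level for testing and none was called by limma, nor had any an unadjusted p under 0.05. Of these 10, 2 had all treated chips below the vehicle chip (24% of all probe sets did) and 3 had all above it (25%). Kcnj16 was 1 of the 2 below, but its dimmer probe set, also tested, was above on every pool: 553, 836.1 and 633.1, against 526.1. The median difference of the list was -0.13, against -0.003 over all tested probe sets.

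Bhlha15 (MIST1), the transcription factor that builds the secretory apparatus of mature chief cells, had 604.6, 695.5 and 781.2 on the treated chips, against 768.8 on the vehicle chip. Xbp1, a regulator of the secretory endoplasmic reticulum upstream of Bhlha15, had 10402.1, 10874.3 and 12122, against 10292.8. Bhlha15 straddled the vehicle chip, and Xbp1 lay above it by 0.11 ± 0.11 (SD, n = 3) on the log2 scale. Rab3d, a small GTPase of zymogen granules, averaged 3234 ± 569 (SD, n = 3), against 2814, and Rab26, another granule GTPase, averaged 270.8 ± 91.0 (SD, n = 3), against 315.9. None of the 4 approached the threshold (limma adjusted p near 1).

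Chymosin and the pepsinogens belong to the aspartic proteases. Of 8 other listed members of that family, 6 were on the array and 4 were tested. None was called by limma, and 1 had an unadjusted p under 0.05 (440 of 9520 tested probe sets did). That gene was Bace2, a membrane-bound protease, with 921.8, 789.9 and 834.3 on the treated chips, against 420.4 on the vehicle chip. All treated chips were above the vehicle chip, by 0.98 ± 0.11 (SD, n = 3) on the log2 scale, opposite in sign to Cym (limma adjusted p = 0.176). It passed without pool 1 or pool 2 (limma adjusted p = 0.037 and 0.0164), but those fits rest on the same lone vehicle chip with fewer treated ones. Over all alternatives the limma adjusted p of Bace2 ran up to 0.825.

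Ctse, the cathepsin E of surface mucous cells, had 13772.1, 14025.2 and 13690.3 on the treated chips, against 13384.8 on the vehicle chip. Ctsd, the lysosomal cathepsin D, had 2867.6, 2679.3 and 2646, against 3023.3. Their mean differences were 0.05 ± 0.02 and -0.15 ± 0.06 (SD, n = 3) on the log2 scale, and neither passed. The median of the 4 tested genes was -0.05. The probe sets of Bace1 and Napsa lay under the level for testing.

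Intrinsic factor stands at the head of the pathway that takes cobalamin from the stomach to the cell. Of 15 listed genes of cobalamin handling, 11 were on the array, 8 were tested and none was called by limma or had an unadjusted p under 0.05. Of the 8, 3 had all treated chips below the vehicle chip and 0 had all above it (24% and 25% of all probe sets), and the median difference was -0.07. Tcn2, the transcobalamin that carries cobalamin in blood, had 1988.4, 1982.3 and 1706.9 on the treated chips, against 2334.2 on the vehicle chip. Its mean difference of -0.30 ± 0.12 (SD, n = 3) did not pass (limma adjusted p near 1).

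Cd320, the cellular receptor for transcobalamin, averaged 1142 ± 177 (SD, n = 3) on the treated chips, against 1195 on the vehicle chip. Mmadhc, which sorts cobalamin inside the cell, averaged 1256 ± 45.5 (SD, n = 3), against 1379. Lmbrd1, which exports it from lysosomes, averaged 2157 ± 176 (SD, n = 3), against 2114. None of these passed, and the probe set of Cubn, the ileal receptor of intrinsic factor, was under the level for testing.

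**Figure D4:**
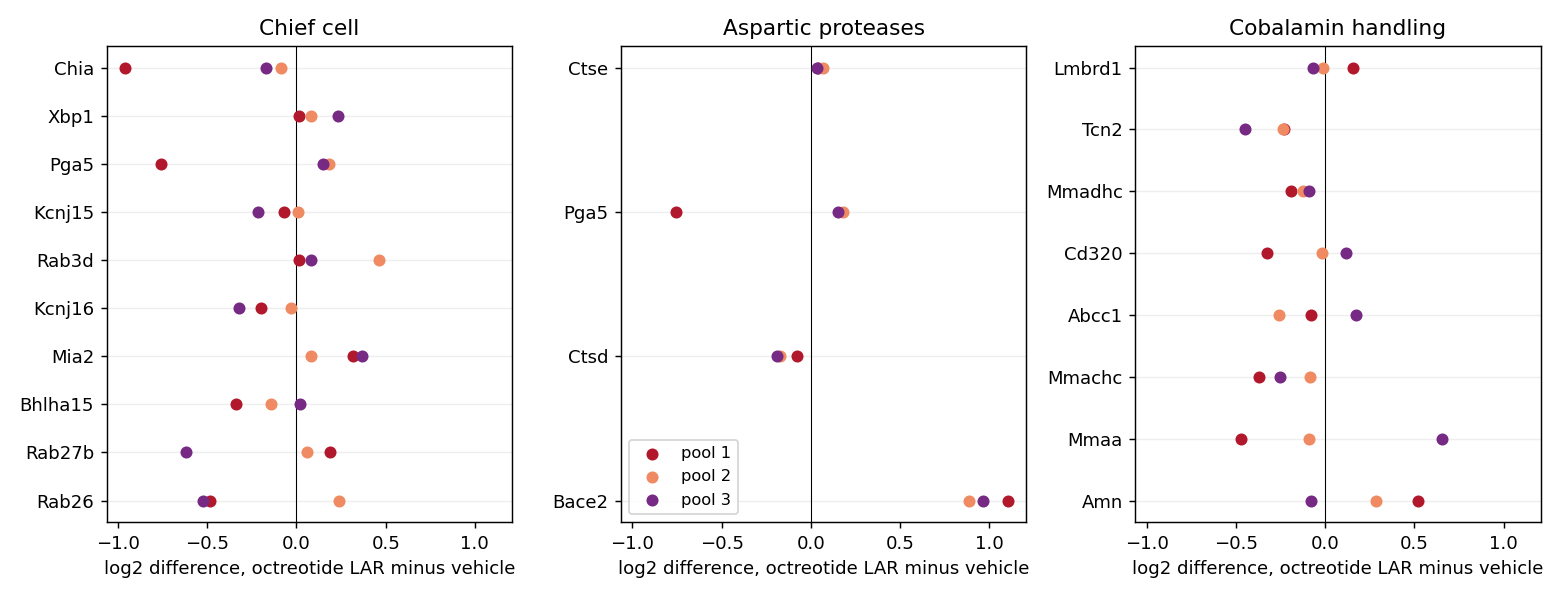
Log2 difference (octreotide LAR minus vehicle) on pools 1, 2 and 3 for the tested genes of the chief cell, the aspartic proteases and cobalamin handling, 1 row a gene and 1 point a pool. Pool 1 stands apart for Chia at -0.96 and Pga5 at -0.76, and the Bace2 points lie between 0.88 and 1.10.

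Zymogen release was followed with 20 genes of granules and regulated exocytosis, some of them also in the chief cell list. Of these, 19 were on the array and 12 tested, with none called by limma and a median difference of -0.09. Among them 1 had an unadjusted p under 0.05 (440 of 9520 tested probe sets did). That gene was Anxa7, an annexin of membrane fusion, with 2152.2, 1831.3 and 2036.4 on the treated chips, against 1503.3 on the vehicle chip (limma adjusted p near 1). Vamp8, the vesicle protein of zymogen granule fusion, had 3639.5, 3605.6 and 3647.6, against 4108.8, a difference of -0.18 ± 0.01 (SD, n = 3) that did not pass. Stxbp2, a partner of syntaxins, averaged 466.4 ± 120 (SD, n = 3), against 326.2.

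The receptors and ligands that drive or restrain chief cells, with their couplers, numbered 22, of which 21 were on the array and 15 tested. None was called by limma or had an unadjusted p under 0.05, and the median difference was 0.01. The 3 with the smallest p were Prkaca, Cck and Cckbr. Prkaca, a catalytic subunit of protein kinase A, had 515.4, 522.1 and 398.7 on the treated chips, against 335.1 on the vehicle chip. Cck, the hormone cholecystokinin, had 199.2, 169.1 and 199.9, against 289.6.

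Cckbr, the gastrin receptor, had 329.3, 237.2 and 192.3 on the treated chips, against 349.3 on the vehicle chip. Chrm3, the muscarinic receptor for acetylcholine, averaged 298.2 ± 65.7 (SD, n = 3), against 236.3, and did not pass. Gast, the gastrin of antral G cells, had 1160.8, 611.1 and 696.7, against 664.9, with pool 1 again the chip apart. Pool 1 was thus the highest for gastrin and the lowest for chymosin, and that was not tested.

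The probe sets nearest to chymosin over the pools were ranked by likeness. Likeness was measured as the root mean square distance between the 3 log2 differences, which all share the vehicle chip, among 8079 other named probe sets tested. The differences are those that chose Cym, and a gene chosen for an extreme difference has few neighbours by construction: none lay within 0.25 and 3 within 0.5. The 8 nearest were Hdc, Cpa1, Slc39a4, Prdm2, Cela2a, Cel, Snhg11 and Slc18a2, at distances from 0.39 to 0.60. Hdc, the histidine decarboxylase of ECL cells, was at -1.70, -1.41 and -1.64 on pools 1, 2 and 3, without the extra drop of Cym on pool 1.

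Cpa1, a pancreatic carboxypeptidase, was at -1.88, -1.51 and -0.76 on the log2 scale, from signals of 151.5, 201.5 and 349, against 602.2 on the vehicle chip. The elastase Cela2a and the lipase Cel are pancreatic enzymes too, at mean differences of -1.42 and -1.40. Slc39a4, a zinc transporter, was at -1.74, -0.90 and -0.81, lowest on pool 1 as Cym was, from a vehicle signal of 266.8. Its treated signals of 68.7, 135.6 and 144.8 were all under the level for testing, so it was included only through the vehicle chip. Prdm2 had a treated mean of 124.1, also under that level, against 266.2 on the vehicle chip. It too was included only through the vehicle chip. By the log2 difference, 4 probe sets were at least 2-fold below vehicle on every treated chip (0.042% of those tested). They were those of Cym, Hdc, Cela2a and Grm8, a glutamate receptor. Cel, at -0.97 on pool 3, fell just outside this count. Its plain signals of 245.9, 212 and 363.6, against 729.9 on the vehicle chip, were all at least 2-fold lower. A count by plain signals was not made. Grm8 had 63, 182.2 and 64.2 on the treated chips, against 418.9 on the vehicle chip, and passed the level for testing through the vehicle chip. The choice of Cym used that contrast, so nothing is read from its place among the 4 probe sets.

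Pgc and Cblif, with differences near 0, by the same construction have many neighbours. Within a distance of 0.1 lay 258 probe sets for Pgc and 483 for Cblif, and within 0.25 lay 2865 and 3515. The 3 nearest to Pgc were Fkbp15, C1qbp and Mix23, and the 3 nearest to Cblif were Mpc2, Akr1a1 and Mrpl20, all at distances under 0.03. With differences this small, the order of likeness carries little.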

How the data were processed

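The deposited values are linear intensities, 1 for every probe set on a chip; what the authors did to compute and scale it is not given in the sources used here. Total RNA was extracted with an RNeasy kit and labelled as biotin cRNA, per the labels' protocols. The trimmed means of the 4 chips lay between 496.8 and 497.2. Signals were taken as log2(signal + 16), and probe sets with a mean signal under the 40th percentile (149.7) were left out, which left 9520. The fit used limma 3.58.1 in R 4.3.3 (lmFit, eBayes with a trend), 3 treated chips against 1 vehicle chip, threshold 0.05; its spread comes from the treated pools alone. The code was tested on simulated data that gave the vehicle chip the spread of the treated chips, which says nothing of whether that holds here. A gene with several probe sets is shown by the brightest. Symbols were updated through RefSeq (GRCr8), and no gene coordinates are given beside the promoters. The members and gene lists were chosen with earlier results of these data known. Named genes were the 3 members, genes of the chief cell, protease and cobalamin lists, the 3 smallest p of other lists, and the nearest patterns (8 for Cym, 3 for each other member); Chrm3, Gast and Grm8 were named after their values were seen. Alternatives changed the pseudocount, scaling, filter, trend, probe set rule and the treated chips.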

Additional observations from a re-analysis of the deposited data

How the results depend on the processing

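Cym stayed negative under all 7 alternatives (log2 difference -1.80 to -1.27), as did Cym minus Pgc (-1.80 to -1.15) and Cym minus Cblif (-1.71 to -1.18). Without 1 treated pool the ranges were -1.80 to -1.27, -1.80 to -1.15 and -1.71 to -1.18. All 3 measures were negative on every treated pool, so leaving out 1 pool could not change their sign. The genes were also chosen by this contrast, so nothing is read from the sign. Pgc lay between -0.12 and 0.06 without 1 pool, and Cblif between -0.15 and -0.09. Quantile normalization moved Cblif to -0.19. The count of probe sets called was 8, and it was 8 with a pseudocount of 1, 5 with 64, 4 with quantile normalization and 5 with 75th percentile scaling. It was 23 to 52 without 1 treated pool (45, 52 and 23 without pools 1, 2 and 3), and 10 with a filter on the mean log2 value, chosen after seeing the data. With no filter limma called 0 of 15866 probe sets (776 at an unadjusted p under 0.05), and with no trend 0 of 9520 (456). The aspartic protease count was 0 to 1 without 1 pool, the 1 being Bace2 without pool 1 or 2, and the other 4 pathway lists had 0 calls under all 10 alternatives each. The cause of these shifts was not tested. The labels give no pairing of treated and vehicle pools, so no paired analysis was made. The single vehicle chip limits every comparison, and no detection call was used, so dim probe sets have no bound.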
